A study of Gallus gallus with 106 samples.

Results

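ELOVL1, ELOVL3 and ELOVL4 encode elongases of very long chain fatty acids, and their transcripts were followed in chicken muscle satellite cells that differentiated at low or normal oxygen. These 3 genes were chosen from the 569 genes of a targeted panel on their measured differences between the oxygen groups, so their levels and oxygen changes are given as a description. How the fit across the whole panel called them is given once, beside the share of all genes called, and supports nothing. Each had 1 transcript on the panel, and all 3 passed the filter on low counts that 453 genes passed. The cells were primary satellite cells of Pectoralis major, the breast muscle, from wild-type broilers, which are chickens bred for meat. They were grown in a rich serum medium, moved to a medium that induces differentiation, and kept at 1% O2 (hypoxia) or 20% O2 (normoxia) for up to 48 h. All groups shared the strain type, the tissue and the growth medium. Normoxia at 0 h was harvested before the medium change, so time and the change of medium cannot be told apart in any comparison with 0 h. It had 5 biological libraries, and each oxygen level at 12, 24, 36 and 48 h had 6, which makes 53 libraries in 9 groups. Whether each library is from its own bird is not in the labels, so p-values here reflect the spread among these libraries alone, and that spread may be technical.

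Fatty acids are lengthened in the endoplasmic reticulum by a cycle whose first and slowest step, the condensation of an acyl-CoA with malonyl-CoA, is carried out by an ELOVL enzyme. In mammals ELOVL1 and ELOVL3 act mainly on saturated and monounsaturated acyl chains, and ELOVL1 supplies the long chains bound in sphingolipids. ELOVL4 makes the longest chains known in mammals, in retina, brain and skin, and ELOVL3 is best known from mouse skin and brown fat.

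ELOVL1 lies on chromosome 8 of galGal6 at 20037114 to 20049475 on the minus strand, with 9 exons. ELOVL3 lies on chromosome 6 at 17632410 to 17636794 on the plus strand, with 4 exons, and ELOVL4 on chromosome 3 at 79270155 to 79302116 on the plus strand, with 6 exons. Levels are normalised read counts (CPM), scaled by library size and TMM factors. CPM of different genes also reflect primer yield and were not compared between genes. ELOVL1 collected 8445 reads over all libraries, ELOVL3 1177 and ELOVL4 416, so the precision differed between them.

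Library totals ran from 171196 to 1448544 counts, with a median of 759253, and 12 libraries held under 300000. All 8 satellite cell and myoblast markers on the panel were above 0 in every library, among them PAX7 (5714 to 13234 CPM), MYF5 (1824 to 9017) and MYOD1 (3188 to 5627). So were the adipocyte marker ADIPOQ (2741 to 4623 CPM) and the fibroblast marker COL1A1 (3383 to 5557). The fibroblast marker COL1A2 was scarce, with a mean of 2.98 CPM and 16 libraries at 0. These levels therefore do not settle the label of the cells. In 17 of the 53 libraries 6 genes (MC5R, SSTR2, HRH2, THRSP, FBP2 and IRS1) stood apart together, with a mean log2 CPM above a gap from 7.03 to 7.67, and they are called high-score libraries here. They were 4 of 6 libraries in normoxia and 1 of 6 in hypoxia at 12 h, 5 of 6 and 2 of 6 at 48 h, and 1 in each other group. In bulk cultures fewer cells of a type and less RNA per cell cannot be told apart.

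The fitted changes from normoxia to hypoxia were negative at all 4 harvests for ELOVL1 and ELOVL3 and at all but 48 h for ELOVL4. The lowest of them was at 12 h for ELOVL1 and at 24 h for ELOVL3 and ELOVL4. At 12 h 3 of 3 members were called lower by the quasi-likelihood test of edgeR, adjusted over the panel, where 10.4% of tested genes were called lower. At 24 h 2 of 3 were called lower (8.61% of the panel), at 36 h 2 of 3 (10.2%) and at 48 h 1 of 3 (9.27%). None was called higher. The call of ELOVL3 at 12 h was lost under 7 of 17 alternatives. That of ELOVL4 at 36 h was lost without replicate 5, those of ELOVL3 at 36 h and ELOVL4 at 12 h in technical replicate 1 alone, and that of ELOVL1 at 48 h without the high-score libraries. Calls were gained by ELOVL1 at 36 h without replicate 4 or without libraries under 300000 counts, and by ELOVL3 at 48 h in technical replicate 1 alone. Since members were chosen on these contrasts, nothing is read from the counts.

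**Figure D1:**
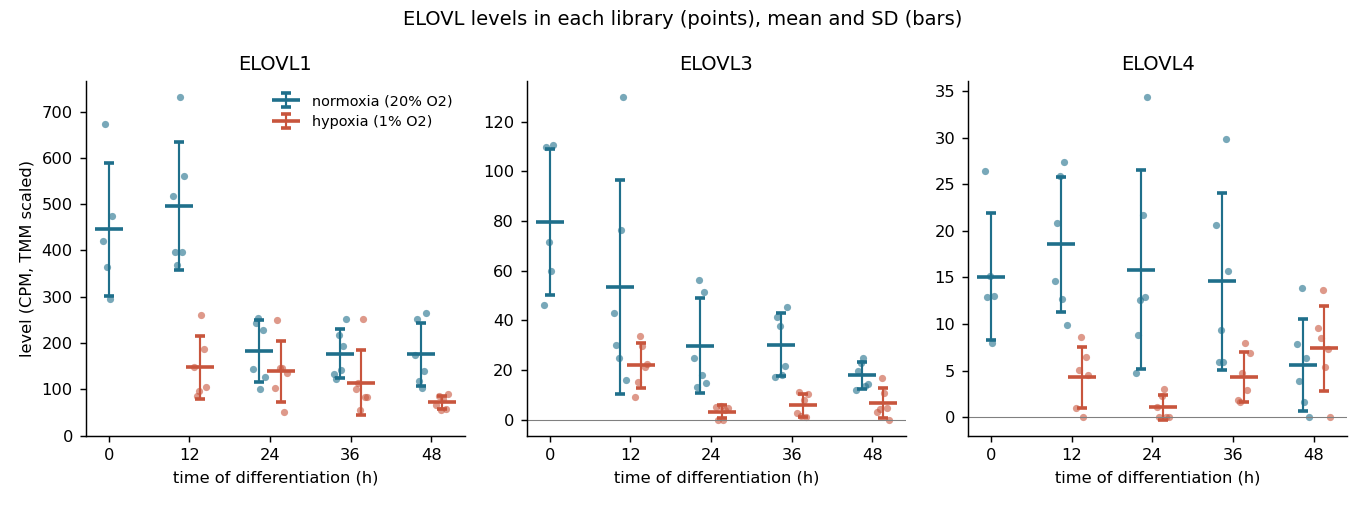
Level of each member (CPM, vertical axis) by time of differentiation in hours, in normoxia (blue) and hypoxia (red). Points are libraries, and horizontal bars with whiskers are the mean and SD of 5 libraries at 0 h and 6 elsewhere. The hypoxia points lie entirely below the normoxia points for ELOVL1 at 12 and 48 h, ELOVL3 at 24 and 36 h and ELOVL4 at 12 and 24 h. The same held for 7.73, 4.19, 3.31 and 6.18% of tested genes at 12, 24, 36 and 48 h. Libraries with 0 reads are drawn at 0, as in hypoxia for ELOVL3 at 24 h and ELOVL4 at 12 and 24 h.

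ELOVL1 before differentiation was at 421, 673, 365, 296 and 474 CPM in the 5 libraries. At 12 h the lowest, median and highest libraries were at 370, 457 and 731 CPM in normoxia and at 85.6, 127 and 262 CPM in hypoxia. The groups did not overlap, which held for 7.73% of tested genes with hypoxia below. The mean in hypoxia, 147 ± 67.7 CPM (SD, n = 6), was 29.7% of the normoxia mean of 496 ± 138 CPM (n = 6), with a fitted log2 change of -1.76 (SE 0.32).

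By 24 h ELOVL1 in normoxia had come down to the range seen in hypoxia. The lowest, median and highest libraries were at 101, 187 and 255 CPM in normoxia and at 51.7, 141 and 250.4 CPM in hypoxia, with a log2 change of -0.42 (SE 0.32). At 36 h they were at 122, 168 and 253 CPM in normoxia and at 55.3, 92.4 and 252 CPM in hypoxia (log2 -0.66, SE 0.32). Here 5 of 6 hypoxia libraries were below the lowest normoxia library, and replicate 4 was the exception. Without replicate 4 of every group the log2 change was -1.07 (SE 0.30).

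At 48 h ELOVL1 was again separated by oxygen. The lowest, median and highest libraries were at 104, 157 and 264 CPM in normoxia and at 55.5, 72.9 and 90.6 CPM in hypoxia, with no overlap (6.18% of tested genes had hypoxia entirely below). The mean in hypoxia was 72.4 ± 14.6 CPM (n = 6), 41.2% of normoxia at 176 ± 68.6 CPM, and the log2 change was -1.28 (SE 0.33). With the high-score libraries left out it was -2.01 (SE 0.63), with 1 normoxia library left.

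ELOVL3, the elongase known from skin and brown fat in mouse, was at 46.2, 110, 71.6, 59.7 and 110 CPM in the 5 libraries at 0 h. At 12 h the lowest, median and highest libraries were at 16.2, 36.5 and 130 CPM in normoxia and at 9.24, 21.8 and 33.5 CPM in hypoxia. The groups overlapped, and 2 of 6 hypoxia libraries were below every normoxia library. The mean in hypoxia, 21.9 ± 8.96 CPM, was 41.0% of normoxia at 53.4 ± 42.9 CPM (log2 -1.31, SE 0.46). Under the 17 alternatives the change ran from -0.80 without replicate 5 to -2.13 with the high-score libraries left out.

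In hypoxia at 24 h few reads of ELOVL3 were left. Normoxia libraries had 13.2, 21.4 and 56.3 CPM as lowest, median and highest, and hypoxia libraries 0, 4.42 and 5.34 CPM, without overlap (4.19% of tested genes). The group means were 29.7 ± 19.2 and 3.24 ± 2.56 CPM (n = 6 each), hypoxia being 10.9% of normoxia, with a log2 change of -3.07 (SE 0.57). Hypoxia rested on 16 reads in 6 libraries, of which 2 had 0 reads, and counts of 0 there allow up to 4.53 and 11.9 CPM. The lowest normoxia libraries, at 13.2 and 14.7 CPM, rested on 3 reads each. The pooled level with its exact Poisson 95% interval, which covers counting error only, was 3.82 CPM (2.18 to 6.20) in hypoxia and 37.8 CPM (31.9 to 44.5) in normoxia.

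The separation of ELOVL3 was still complete at 36 h. Normoxia libraries had 17.4, 29.6 and 45.3 CPM as lowest, median and highest, and hypoxia libraries 0.963, 5.40 and 11.1 CPM (3.31% of tested genes had hypoxia entirely below). Hypoxia held 20 reads, 1 to 7 in each library, and normoxia 122. The normoxia library of replicate 4, at 17.9 CPM, rested on 3 reads. The means were 30.2 ± 12.6 and 5.80 ± 4.56 CPM, and the log2 change was -2.52 (SE 0.55). It was -1.73 in technical replicate 1 alone and -3.57 in technical replicate 2 alone. At 48 h hypoxia libraries had 0, 4.57 and 16.8 CPM against 11.8, 16.9 and 24.7 CPM in normoxia, so that 5 of 6 were below every normoxia library. Among these, replicate 6 had 0 reads, which allows up to 13.3 CPM, above the lowest normoxia library, and replicate 2 had 1 read. The hypoxia group held 29 reads, 16 of them in replicate 3. The log2 change was -1.20 (SE 0.54), and it was -2.04 in technical replicate 1 alone but -0.05 in technical replicate 2 alone.

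ELOVL4, which makes the longest chains in mammals, had 26.4, 12.9, 15.1, 7.96 and 13.1 CPM in the 5 libraries at 0 h. At 12 h the lowest, median and highest libraries were at 9.94, 17.7 and 27.4 CPM in normoxia and at 0, 4.77 and 8.65 CPM in hypoxia. All hypoxia libraries were below all normoxia libraries, as for 7.73% of tested genes. Replicate 4 in hypoxia had 0 reads, which allows up to 12.9 CPM, above the lowest normoxia library. The means were 18.6 ± 7.21 and 4.29 ± 3.27 CPM (n = 6 each), hypoxia being 23.1% of normoxia (log2 -1.95, SE 0.49). The group in hypoxia held 23 reads and that in normoxia 114.

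ELOVL4 at 24 h had the lowest fitted oxygen change of the 453 genes, with ELOVL3 next. Members were chosen on these contrasts, so these ranks are a description. ELOVL4 passed the filter on low counts mainly through its normoxia libraries, and genes scarce in every group are not among the 453. At 24 h its lowest, median and highest libraries had 4.70, 12.7 and 34.3 CPM in normoxia. In hypoxia they had 0, 0.528 and 3.06 CPM, again without overlap (4.19% of tested genes had hypoxia entirely below). The log2 change was -3.22 (SE 0.63), and the hypoxia mean of 1.07 ± 1.33 CPM was 6.75% of the normoxia mean of 15.8 ± 10.7 CPM. Hypoxia had 6 reads in all, and 3 libraries had 0. Counts of 0 there allow up to 3.77, 11.9 and 14.7 CPM, of which 3.77 is below the lowest normoxia library and the others are not. The pooled level was 1.43 CPM (exact Poisson 95% interval 0.526 to 3.12) in hypoxia and 13.1 CPM (9.73 to 17.3) in normoxia.

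At 36 h ELOVL4 was at 5.89, 12.5 and 29.9 CPM in normoxia and at 1.58, 3.81 and 7.99 CPM in hypoxia, as lowest, median and highest library. The groups overlapped, with 4 of 6 hypoxia libraries below every normoxia library. Hypoxia held 15 reads, 1 to 4 in each library, and normoxia 73. The lowest normoxia libraries, at 5.89 and 5.96 CPM, rested on 3 reads and 1 read. The log2 change was -2.01 (SE 0.53). It was -1.56 (SE 0.62) without replicate 5. At 48 h the groups overlapped over nearly their whole range, at 0, 5.10 and 13.8 CPM in normoxia and 0, 7.91 and 13.6 CPM in hypoxia (log2 0.26, SE 0.52, 95% interval -0.77 to 1.28). These groups held 33 and 30 reads.

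**Figure D2:**
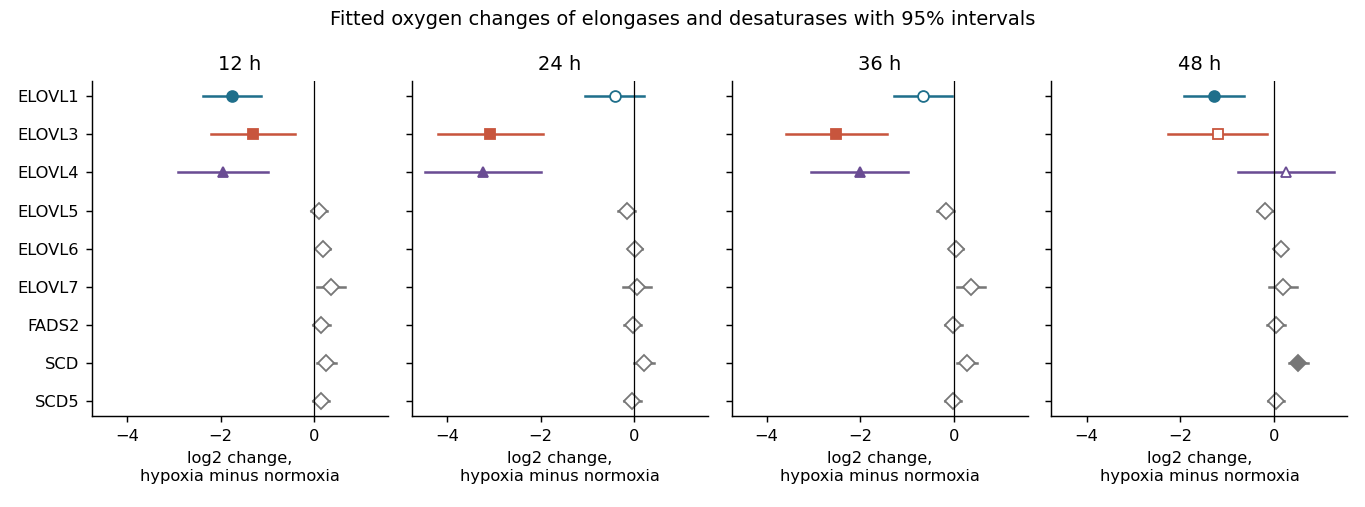
Fitted log2 change from normoxia to hypoxia (horizontal axis) for the 3 members and the 6 other tested elongation and desaturation genes at 12, 24, 36 and 48 h. Lines are 95% intervals, and filled symbols were called at an adjusted p of 0.05 in edgeR. Members, which were chosen on these contrasts, reach -3.22, and the other genes stay between -0.19 and 0.52.

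The fitted oxygen changes of the members varied between harvests, and the differences are given as a description, since the members were chosen on these contrasts. For ELOVL4 the change at 48 h lay 2.21 above that at 12 h on the log2 scale (SE 0.72, 95% interval 0.80 to 3.61). This difference ran from 1.63 to 7.56 over 15 alternatives, and from 2.03 to 2.57 with a replicate left out. Its call in edgeR was lost under 10 of the 15, among them DESeq2 and scaling to reference genes. The panel share called for this single difference is not given here. In the joint test of the 24, 36 and 48 h changes against that at 12 h, ELOVL4 was called and ELOVL1 and ELOVL3 were not. That joint test called 10.6% of tested genes. For ELOVL1 the change at 24 h lay 1.34 (SE 0.45) and that at 36 h 1.10 (SE 0.45) above that at 12 h. Neither difference was called in edgeR, but that at 24 h was called under 2 of 16 alternatives, DESeq2 and without replicate 5. For ELOVL3 the changes at 24 and 36 h lay at -1.77 (SE 0.73) and -1.21 (SE 0.71) relative to 12 h, the opposite side. The 4 oxygen changes come from separate libraries, and whether the members differ from each other in timing was not tested.

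**Figure D3:**
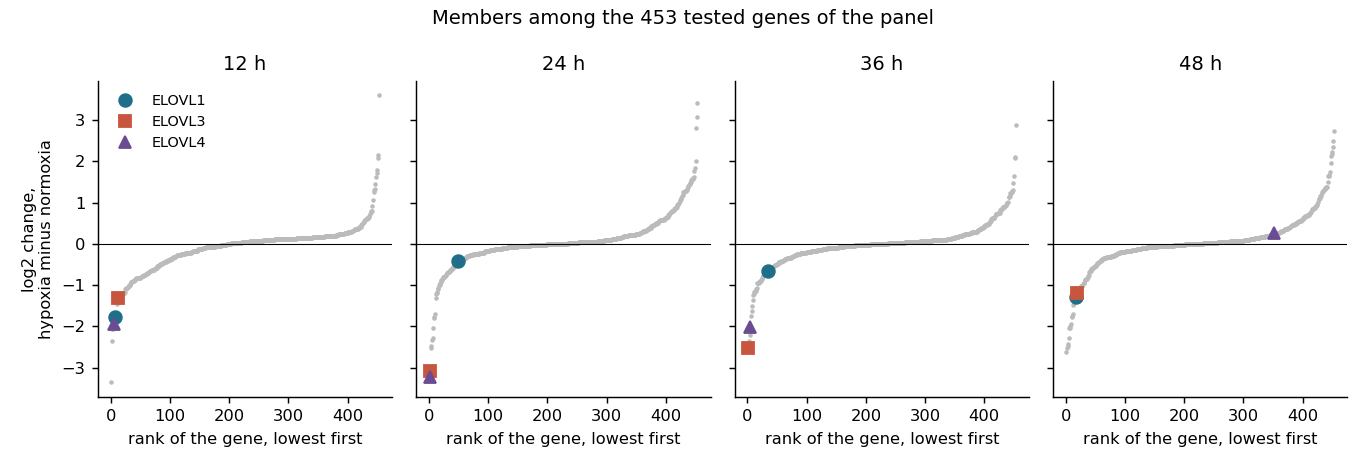
Fitted log2 change from normoxia to hypoxia (vertical axis) of all 453 tested genes, ranked from the lowest (horizontal axis), at 4 times. Grey points are other genes. ELOVL4 and ELOVL3 hold ranks 1 and 2 at 24 h, ELOVL3 holds rank 1 at 36 h, and ELOVL4 is at rank 352 at 48 h. Members were chosen on these contrasts, so their ranks are a description.

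Over the course of differentiation ELOVL1 and ELOVL3 came down in both oxygen levels. In normoxia ELOVL1 kept its level to 12 h, at 111% of the 0 h mean, and stood at 41.1% at 24 h, a step of -1.43 on the log2 scale (SE 0.32). It then stayed at 39.7% and 39.4% at 36 and 48 h. In hypoxia it was at 33.1% already at 12 h (log2 step -1.61, SE 0.33) and reached 16.2% at 48 h. In the order of the 9 group means a single pair of neighbours did not overlap, normoxia at 0 h and at 24 h, and all lower groups overlapped with the next. Such overlap of neighbours was not counted over the panel, so for each member it is a description from which nothing is read.

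ELOVL3 in normoxia stood at 67.1, 37.4, 38.0 and 22.4% of the 0 h mean at 12, 24, 36 and 48 h, and none of the 4 steps between harvests was called by edgeR. In hypoxia it was at 27.5% at 12 h and 4.08% at 24 h, a log2 step of -2.50 between these harvests (SE 0.58), and at 7.29 and 8.35% after that. From 0 to 48 h the log2 change was -2.13 (SE 0.49) in normoxia and -3.33 (SE 0.53) in hypoxia. Neighbours in the order of ELOVL3 group means all overlapped.

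ELOVL4 in normoxia stood at 123, 105, 96.6 and 37.1% of the 0 h mean at 12, 24, 36 and 48 h. In hypoxia it was at 28.4% at 12 h and 7.08% at 24 h and then at 28.7 and 49.0%, and the later upward steps of 1.33 (SE 0.72) and 1.08 (SE 0.57) were not called. Its 48 h level was not called different from 0 h in either oxygen level (log2 -1.15, SE 0.50, in normoxia and -0.90, SE 0.50, in hypoxia). The normoxia change was called with the replicate block (-1.21), with reference genes (-1.27) and without replicate 3 (-1.64). All neighbours in the order of its group means overlapped. ELOVL1 and ELOVL3 were both called lower at 48 h than at 0 h in each oxygen level, where 25.2% of tested genes were called lower in normoxia and 25.2% in hypoxia, and both courses share the 0 h libraries. With the high-score libraries left out, which left 1 normoxia library at 48 h, the normoxia changes of ELOVL1 (-0.72, SE 0.69) and ELOVL3 (-2.53, SE 1.04) were not called.

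Markers of other cell types moved over the same course. The summed level of the 4 endothelial markers on the panel, of 6 listed, was 687 to 1469 CPM at 0 h and 95.4 to 245 CPM in normoxia at 48 h, and PECAM1 was at 0 in 16 libraries. It was 214 to 569 CPM in hypoxia at 48 h, higher than in normoxia but with overlap. The 2 of 6 listed immune markers on the panel summed to 5.31 to 34.9 CPM at 0 h and to at most 7.77 CPM in normoxia at 48 h, with PTPRC at 0 in 25 libraries. The sum of 5 of 8 listed adipocyte markers was 14618 to 20853 CPM in hypoxia and 16620 to 19355 CPM in normoxia at 24 h, where ELOVL3 and ELOVL4 were lowest, so the groups overlapped. A sum is set by the genes of highest CPM, and PLIN1, with a mean of 18.5 CPM, hardly enters it. The 24 h oxygen change was -1.098 for PLIN1, -0.006 for ADIPOQ, -0.068 for FABP4, -0.159 for PPARG and -0.039 for LPL, none of them called. The 8 muscle fibre markers summed to 5864 to 7368 CPM at 0 h and to 12918 to 14524 CPM in normoxia at 48 h. By oxygen, DPT, 1 of 6 fibroblast markers on the panel, was called lower in hypoxia by edgeR at all 4 harvests (log2 -0.60, -0.99, -1.15 and -1.03). The fibroblast markers COL1A1, COL3A1, PDGFRA and FN1 were not called at any harvest, and COL1A2 was not tested. Of the satellite cell and myoblast markers, PAX3 was called higher at 24, 36 and 48 h (1.12, 0.86 and 0.92). MYF6 was called higher at 24 h (2.02) and ITGA7 lower at 12 h (-0.875). PAX7, MYF5, MYOD1, MYOG and DES were not called at any harvest. The endothelial markers VWF (0.98 at 24 h and 1.11 at 48 h) and ENG (1.27 at 48 h) were called higher, and CDH5 was not called. The fibre markers MYH1E (0.63, 1.26, 1.16 and 1.34) and PVALB (1.32, 1.59, 1.14 and 1.28) were called higher at all 4. Other fibre markers did not share these calls: MYH1B was called higher at 36 h alone (0.49). MYH1D (-0.18) and MYH1F (-0.86) were called lower at 48 h, and ACTA1, LDB3 and TNNT2 were not called at any harvest. TNNT2 had fitted changes upward all the same (1.443, 0.988, 1.02 and 1.385). It was scarce, with a mean of 6.00 CPM and 10 libraries at 0. At 12 h the 2 immune markers summed to 0 to 5.13 CPM in hypoxia and 4.97 to 19.1 CPM in normoxia. The part of these cell types in the members' changes was not tested.

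The other enzymes of elongation and desaturation were not called lower in hypoxia at any harvest. Of 8 further panel genes of this list 6 could be tested, and 0 of 6 passed in edgeR at 12, 24 or 36 h, with 3, 0 and 2 at an unadjusted p under 0.05. DESeq2 called 0, 0 and 1 of the 6 at these times, the 1 being SCD. ELOVL2 had 57 reads in all and was not tested, nor was FADS6. ELOVL5, which lengthens polyunsaturated chains in mammals, had log2 changes of 0.10 (95% interval -0.07 to 0.28), -0.16 (-0.34 to 0.02), -0.18 (-0.35 to -0.0013) and -0.19 (-0.36 to -0.01) at 12, 24, 36 and 48 h. ELOVL6, which lengthens palmitate, had 0.19 (0.05 to 0.34), 0.02 (-0.13 to 0.16), 0.04 (-0.10 to 0.18) and 0.14 (-0.0013 to 0.29). These intervals hold no fall as large as the called falls of the members. Not all member changes were called, as with ELOVL1 at 24 h (-0.42) and ELOVL4 at 48 h (0.26). The members were chosen on these contrasts, so nothing is read from the comparison.

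ELOVL7, another elongase of saturated chains in mammals, had oxygen changes of 0.36 (SE 0.15), 0.05 (SE 0.15), 0.35 (SE 0.15) and 0.20 (SE 0.15), none of which passed. It fell during differentiation all the same, from 1893 ± 200.3 CPM at 0 h (n = 5) to 772 ± 130 CPM in normoxia at 48 h (n = 6, log2 -1.30, edgeR adjusted p = 1.79e-09) and to 886 ± 151 CPM in hypoxia (log2 -1.09, edgeR adjusted p = 1.09e-07). SCD, the stearoyl-CoA desaturase that makes monounsaturated chains, rose in hypoxia at 48 h, from 1957 ± 153 to 2802 ± 446 CPM (log2 0.52, SE 0.11, edgeR adjusted p = 0.00013, higher in 6 of 6 libraries). FADS2 and SCD5, the other desaturases tested, did not pass at any time. None of the 6 was called in the joint test for a difference of the oxygen change between times, against 10.6% of tested genes (edgeR adjusted p = 0.277 to 0.667).

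Other lipid genes were called in both directions. Across all lipid lists 48 genes other than the members were tested. In hypoxia 2 rose and 2 fell at 12 h, 1 rose and 7 fell at 24 h, 1 rose and 7 fell at 36 h, and 5 rose and 5 fell at 48 h. On the whole panel 17.9, 18.5, 16.3 and 22.3% of genes were called in either direction at these times. The medians of the 48 genes were 0.11, -0.04, -0.01 and 0.04 on the log2 scale, beside 0.04, 0.01, 0.00 and 0.01 for all tested genes. With the high-score libraries left out the counts called were 1 at 12 h and 2 at 48 h, and scaling to reference genes gave 1 at 12 h and 3 at 24 h.

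Of 5 fatty acid synthesis genes 1 rose in hypoxia, ACACA, which makes the malonyl-CoA that elongases consume. Its log2 changes were 0.78 (SE 0.21) at 12 h, 0.94 (SE 0.21) at 36 h and 1.65 (SE 0.21, edgeR adjusted p = 1.32e-08) at 48 h, from 549 ± 73.5 to 1715 ± 260 CPM at the last. FABP1, a fatty acid-binding protein, was the 1 of 10 uptake and binding genes that fell, by 1.71 (SE 0.19) at 24 h, 1.09 (SE 0.19) at 36 h and 1.41 (SE 0.19) at 48 h. FABP2 of the same list rose at 48 h (log2 0.40, SE 0.13).

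Among 6 triglyceride genes MGLL, the monoglyceride lipase, fell at 24 h (log2 -0.69, SE 0.14) and 36 h (-0.64, SE 0.14), and PNPLA2, the first lipase of droplet breakdown, rose at 48 h (0.35, SE 0.08). Among 5 oxidation genes UCP3, a mitochondrial carrier, fell at 24 h (-0.92, SE 0.31) and 48 h (-1.17, SE 0.31), and CPT1A, which admits fatty acids to mitochondria, rose at 48 h (0.29, SE 0.06). In the sterol list the apolipoprotein APOA1 fell at 24, 36 and 48 h (log2 -0.32, -0.33 and -0.34, SE 0.11 each), and ABCA1, which exports cholesterol, fell at 36 h (-0.58, SE 0.18). No gene of the sphingolipid and ceramide list was on the panel, so the use of very long chains in sphingolipids could not be followed.

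Of 11 lipid transcription factors PPARGC1A, a coactivator of mitochondrial and lipid oxidation genes, fell at 12 h (log2 -0.83, SE 0.15), 24 h (-1.07, SE 0.15) and 36 h (-0.42, SE 0.15). PPARA, a fatty acid-sensing nuclear receptor, fell at 24, 36 and 48 h (log2 -0.37, -0.50 and -0.47, SE 0.13 each). PPARD (-0.82, SE 0.30) fell and KLF9 (1.25, SE 0.46) rose at 12 h, both close to the threshold (edgeR adjusted p = 0.0473 each). KLF9 was scarce, at 4.82 ± 1.95 CPM in normoxia and 10.9 ± 4.48 CPM in hypoxia. Of its 6 hypoxia libraries 5 were above the normoxia mean. INSIG1 rose at 24 h (0.19, SE 0.06). In the oxygen response and glycolysis list 3, 3, 2 and 2 of 11 genes rose. Hexokinase HK2 was at 0.81, 1.27, 1.24 and 2.34 and the repressor BHLHE40 at 0.24, 0.31, 0.27 and 0.41. ENO1 rose at 12 h (1.34, SE 0.29) and VEGFA at 24 h (0.15, SE 0.05). HIF1A, the oxygen-regulated transcription factor, fell at 36 h alone (-0.20, SE 0.07).

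The genes whose group means ran most like those of each member were found over the 9 group means of log2 CPM, which share libraries with the members, as a description. For ELOVL1 they were RARB, a retinoic acid receptor (r = 0.97), SLC31A1, a copper transporter (0.96), and BECN1, an autophagy factor (0.96). RARB in normoxia stood at 125% of its 0 h mean at 12 h and 47.7% at 24 h, and in hypoxia at 34.0% at 12 h. For ELOVL3 they were the mitochondrial folate carrier SLC25A32 (0.98), the malate dehydrogenase MDH2 (0.96) and PPARA (0.96). For ELOVL4 they were the mitochondrial carriers SLC25A26 (0.86), SLC25A14 (0.86) and SLC25A33 (0.83). Their falls were smaller: SLC25A26 in hypoxia at 24 h was at 54.5% of 0 h, where ELOVL4 was at 7.08%. Among the members r was 0.85 for ELOVL1 with ELOVL3, 0.81 for ELOVL3 with ELOVL4 and 0.67 for ELOVL1 with ELOVL4.

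**Figure D4:**
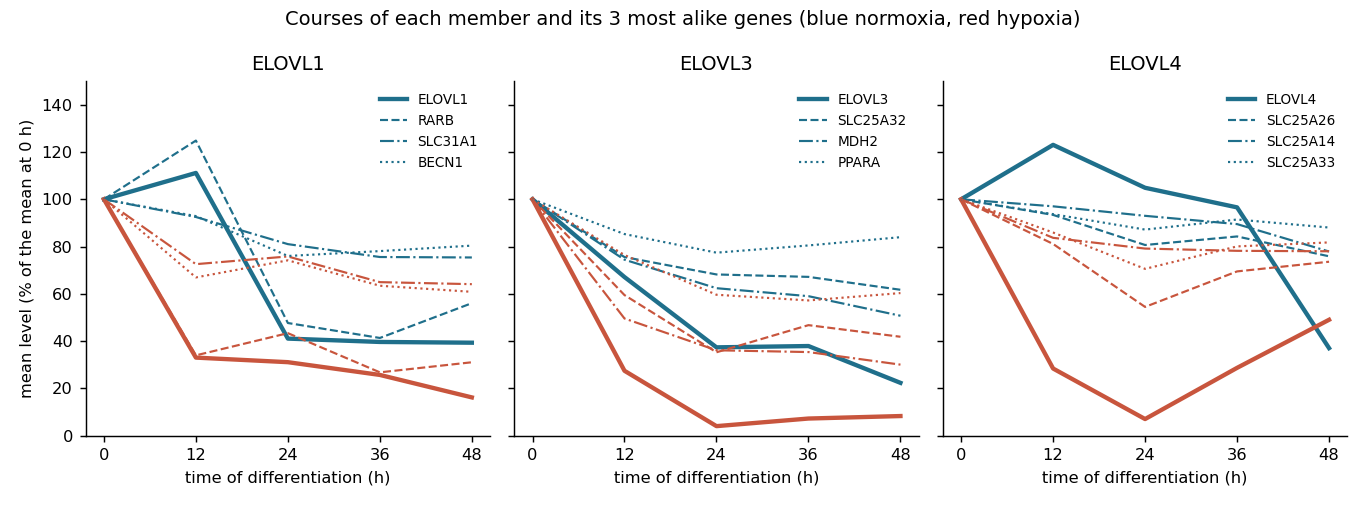
Group mean level as a percent of the mean at 0 h (vertical axis) by time in hours, for each member (thick line) and its 3 most alike genes (thin lines), in normoxia (blue) and hypoxia (red). ELOVL1 and RARB separate by oxygen at 12 h and are close at 24 h, and ELOVL3 and ELOVL4 in hypoxia go down to 4.08% and 7.08% at 24 h.

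Within groups no pair of members was correlated past the threshold. The deviations of log2 CPM from the group mean, which did not serve to choose the genes, were correlated over 53 libraries for 3 pairs, with 100000 permutations within groups. For ELOVL1 and ELOVL3 Pearson's r was 0.08 (two-sided permutation p = 0.582, adjusted 0.582) and Spearman's rho 0.12 (p = 0.418, adjusted 0.577). For ELOVL3 and ELOVL4 r was 0.14 (permutation p = 0.334, adjusted 0.501) and rho 0.08 (p = 0.577, adjusted 0.577). For ELOVL1 and ELOVL4 r was -0.22 (permutation p = 0.129, adjusted 0.388) and rho -0.24 (p = 0.121, adjusted 0.364). The 2 libraries farthest from the median in the first-named gene of each pair were then left out, without regard to the second gene. Without them r was 0.08, 0.00 and -0.35 in the same order (adjusted permutation p = 0.867, 0.990 and 0.0633). With the 17 high-score libraries left out instead, r over the other 36 was 0.15, 0.07 and -0.05. This left 1 normoxia library at 48 h, whose deviation from its group mean is 0 by construction.

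Depth and the 6-gene score moved with some members. Over the same deviations in 53 libraries ELOVL1 correlated with the log10 library total at r = -0.42, ELOVL3 at 0.17 and ELOVL4 at 0.39. With the 6-gene score r was 0.05, -0.46 and 0.00. In normoxia at 12 h the 4 high-score libraries had 16.2 to 43.0 CPM of ELOVL3 and the other 2 had 76.3 and 130 CPM. With the high-score libraries left out the ELOVL3 changes were -2.13 (SE 0.50), -3.34 (SE 0.57), -2.51 (SE 0.52) and -0.56 (SE 1.17) at the 4 times, and those of ELOVL4 at 12, 24 and 36 h were -1.90, -2.86 and -1.77. Without the 12 libraries under 300000 counts the ELOVL1 changes were -1.87 (SE 0.28), -0.72 (SE 0.31), -1.07 (SE 0.28) and -1.08 (SE 0.32). Their part in the members' changes was otherwise not tested.

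**Figure D5:**
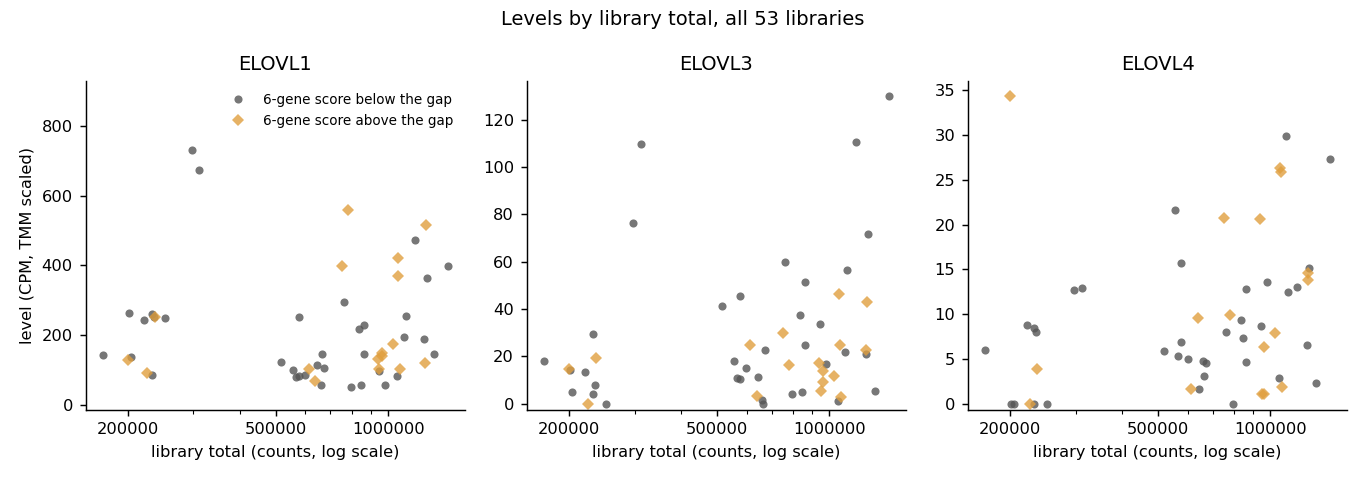
Level of each member (CPM, vertical axis) by library total (counts, log axis) in 53 libraries. Orange diamonds are the 17 high-score libraries and grey circles the other 36. The highest ELOVL1 levels, 731 and 673 CPM, come from libraries of low total.

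Technical replicates bounded the precision of the scarcer members. ELOVL1 had pooled levels of 215 and 218 CPM in technical replicates 1 and 2 and a median SD of 0.33 on the log2 scale between them. ELOVL3 had 33.2 and 27.1 CPM (SD 0.57). ELOVL4 had 12.7 and 8.52 CPM, from 252 and 164 reads, with a median SD of 0.82, and it was higher in technical replicate 1 in 29 libraries, in technical replicate 2 in 18 and equal in 6. Across biological libraries the coefficient of variation fitted by edgeR was 36.5% for ELOVL1, 50.0% for ELOVL3 and 42.1% for ELOVL4, against a median of 16.5% over tested genes.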

How the data were processed

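Targeted RNA-seq was run on reverse-transcribed total RNA, with primers placed to span exon boundaries, per the labels' protocols. The authors deposited raw read counts for 590 transcripts in 106 columns (53 libraries with 2 technical replicates), and coordinates are those of that table, on galGal6 per the submitters' processing notes. Neither aligner nor counter is given in the sources used here, and no molecular identifiers are named, so intervals and floors of 3 counts cover counting error only. Blank cells (1160 in 21 columns) were read as 0. Transcripts and technical replicates were summed to 569 genes, and all 7 panel ELOVL names matched RefSeq symbols.

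Counts were scaled by TMM and tested in edgeR 4.0.16 (R 4.3.3, quasi-likelihood F test), with all 9 groups in 1 fit (44 residual degrees of freedom), after filterByExpr, which 453 genes passed. A gene is called where its p, adjusted after Benjamini-Hochberg over these 453, is under 0.05. SE is the log2 change over the square root of F. The 95% intervals of log2 changes are normal intervals from this SE, slightly narrower than the F test allows. One can leave out 0 where the F test does not pass, as for ELOVL5 at 36 h (edgeR unadjusted p = 0.054). The procedure was tested on simulated data. Correlations used a prior count of 2 and scipy 1.17.1. The members and gene lists were chosen with earlier results of these data known. Named genes are the members, all tested elongation and desaturation genes, up to 3 called genes of largest change per list and contrast, and the 3 genes most like each member. Alternatives were DESeq2 1.42.0, library totals or 7 reference genes for scaling, no filter and single technical replicates. Others were a replicate block, pairs of groups fitted alone, each replicate left out, and the column with no 0 left out. Without that column the normoxia changes from 0 to 48 h were -1.43 for ELOVL1, -2.10 for ELOVL3 and -1.15 for ELOVL4. A further 2 were chosen after seeing the data: without the high-score libraries, and without those under 300000 counts. Sequences were not used here. A gene of the sterol list is not reported here by name.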

Additional observations from a re-analysis of the deposited data

Results flagged for a closer look

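In hypoxia at 36 h the ELOVL1 level of replicate 4 was far from the other libraries of its group, at 251.657 CPM, with the next highest at 114 CPM. The gap was 0.701 of the group's whole range, above the critical 0.625 of Dixon's test for 6 libraries. The value came from 63 reads in a library of 235311 counts, which was not a high-score library. Of 27 groups of member levels checked this was the 1 that stood out. Chance alone flags about 1 group in 20, so 1 flag among 27 groups is no more than chance would give.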

How the results depend on the processing

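Most member values at single harvests and from 0 to 48 h kept their direction and side of the threshold. Of their differences from the 12 h oxygen change edgeR called that of ELOVL4 at 48 h alone. This call was lost under 10 of 15 alternatives. The ELOVL1 difference of 24 h against 12 h gained a call under 2 of 16 alternatives, DESeq2 and without replicate 5. The ELOVL3 change at 36 h was -1.73 (not called) in technical replicate 1 alone and -3.57 in technical replicate 2 alone, and that at 48 h was -2.04 (called) and -0.0462. With the high-score libraries left out the ELOVL1 changes were -2.01 at 48 h and -0.72 from 0 to 48 h in normoxia. Those of ELOVL4 were 5.65 and -6.10, set by 1 normoxia library with 0 reads, and are no measure of size. The cause was not tested for the others. At single harvests leaving out 1 replicate ended or made the calls of ELOVL3 at 12 h and of ELOVL1 and ELOVL4 at 36 h. From 0 to 48 h in normoxia it did so for ELOVL4 (range -1.64 to -0.84). Technical replicate 1 alone ended the call of ELOVL4 at 12 h (-1.81). ELOVL4 did not pass the filter in technical replicate 2 alone or in fits of 2 groups, nor ELOVL3 in the latter at 24 and 48 h, so these gave no value. Each member has 1 transcript, so transcripts alone were not run. Of 48 other lipid genes 4 were called at 12 h, but 1 with reference genes, 2 without a filter, 1 without the high-score libraries, 8 without libraries under 300000 counts and 1 to 5 with a replicate left out. At 24 h 8 were called, but 3 with reference genes and 5 to 7 with a replicate left out. At 36 h 8 were called, but 5 without the high-score libraries and 5 to 9 with a replicate left out, and at 48 h 10, but 2 without those libraries. The panel counts of 81, 84, 74 and 101 calls became 42 and 52 at 12 and 24 h with reference genes, 47 and 55 in technical replicate 1 alone, 49 and 39 at 24 and 36 h in technical replicate 2 alone, and 131, 42 and 33 at 12, 24 and 36 h for pairs of groups. They became 118 at 36 h without libraries under 300000 counts, 24 and 22 at 12 and 48 h without the high-score libraries, and 44 to 86 at 12 h with a replicate left out. Reference genes moved the panel median at 12 h from 0.04 to -0.08. The correlation of ELOVL3 with ELOVL4 was -0.0019 without the 2 libraries farthest from the median in ELOVL3. Same-numbered libraries of hypoxia and normoxia deviated together (r over 0.1) in 12 of 24 pairs (median r 0.107, range -0.320 to 0.777), and 7 of 24 matched their own number best. Every pair would have had to deviate together for the numbers to be taken as pairing, so the block stayed an alternative. The 12 libraries under 300000 counts formed 6 same-numbered pairs at the same harvest, so library totals did go with the number. With the replicate block 8 other lipid genes were called at 12 h, ELOVL4 was called from 0 to 48 h in normoxia, and the oxygen changes of ELOVL1, ELOVL3 and ELOVL4 at 12 h were -1.75, -1.32 and -1.99.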
